A study of Mus musculus with 4 samples.

Results

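Baseline general capillary endothelial cells were the lung endothelial cells that carried the general capillary marker Gpihbp1 and had little RNA of Plvap, Esm1, Ifit1 and Ifit3. Plvap and Esm1 belong to a programme of activated vessels, and Ifit1 and Ifit3 to the interferon programme. The cells were limited on these genes only, and not on other genes of the programmes. They were chosen by their UMI counts: at least 1 UMI of Cdh5 or Cldn5 and of Gpihbp1, and fewer than 2 detected genes of each of an aerocyte, a venous and an arterial set. They also had no UMI of Ptprc, Col1a2 or Epcam, at most 2 UMIs of Plvap and Esm1 together, and at most 1 UMI of Ifit1 and Ifit3 together. A UMI, or unique molecular identifier, marks 1 captured RNA molecule. The rule selected 11775 of 44835 cells that passed the barcode filter, or 26.3%. Of these, 4308 came from the library WT A, 2762 from WT B, 2588 from Vegfr2Y949F A and 2117 from Vegfr2Y949F B.

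All 4 libraries were made from lungs of C57BL/6J mice, aged 6 to 8 weeks per the labels, after 6 weeks of hypoxia. WT mice carried the normal receptor, and Vegfr2Y949F mice (called mutant below) carried the allele that the label names, in the gene Kdr. Each library pooled the cells of 2 mice, so 8 mice gave 4 libraries, and no normoxic lungs were analysed here. The labels give no meaning for the letters A and B, and do not say whether the allele was homozygous or give the sex of the mice in each pool.

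General capillary cells are the more plastic of the 2 capillary endothelial types of the alveolus. They are known as the cells that can divide and replace lost capillary cells, while the large, thin aerocytes line the surface across which gas is exchanged. VEGF-A from the alveolar epithelium acts on both through VEGFR2, a receptor tyrosine kinase. The tyrosine that the label names lies in the cytoplasmic part of VEGFR2 and is known to bind the adaptor TSAd, which links the receptor to Src and to the opening of endothelial junctions. The comparison asks which genes of hypoxic baseline capillary cells differ between WT lungs and lungs labelled with that allele.

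The codon that the allele's name points to is shown to place the mutation. It lies at chr5:75948869-75948871 on the minus strand (GRCm38), in exon 21 of 30 of the Kdr transcript ENSMUST00000113516, within coding sequence. The 69 bases around it in the reference transcript are given with codon 949, a tyrosine codon, in capitals.
Kdr codon 949: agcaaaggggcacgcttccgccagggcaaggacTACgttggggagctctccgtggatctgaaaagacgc
The deposited counts are totals per gene and hold no base calls, so this codon could not be read in any library and the genotype labels were taken as given.

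The results below turn on chaperone genes and on a circadian clock gene, and the sequences upstream of 4 of them are shown for that reason. Each is the 250 bases before a transcript start of the gene from RefSeq (GRCm38.p6), on the gene's own strand. They were picked among upstream windows that hold the motif and no annotated exon. In the first 3, capitals mark GAANNTTC or TTCNNGAA, the paired repeat units of the heat shock element that heat shock factors bind. Each of these motifs reads the same on both strands.
Hspb1, chr5:135887669-135887918, plus strand: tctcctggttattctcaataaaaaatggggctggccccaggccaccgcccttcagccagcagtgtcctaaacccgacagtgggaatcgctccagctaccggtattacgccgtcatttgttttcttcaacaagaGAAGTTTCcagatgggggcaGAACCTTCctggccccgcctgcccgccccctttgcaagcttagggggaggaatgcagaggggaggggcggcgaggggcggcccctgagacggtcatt
Hspa1b, chr17:34959239-34959488, minus strand: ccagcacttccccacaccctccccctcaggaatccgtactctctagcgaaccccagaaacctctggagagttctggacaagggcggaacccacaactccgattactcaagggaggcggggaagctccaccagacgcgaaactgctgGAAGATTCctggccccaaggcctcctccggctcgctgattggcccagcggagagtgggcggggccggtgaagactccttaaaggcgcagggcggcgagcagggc
Hspa1a, chr17:34972157-34972406, minus strand: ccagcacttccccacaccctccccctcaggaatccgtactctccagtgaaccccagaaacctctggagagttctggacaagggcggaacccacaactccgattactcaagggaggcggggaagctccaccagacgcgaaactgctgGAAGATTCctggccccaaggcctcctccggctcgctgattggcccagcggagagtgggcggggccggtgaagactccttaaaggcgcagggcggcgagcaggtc
The last window lies inside Tef, before a start downstream of the gene's first one, and the window at that first start is not shown. Its capitals mark the E-box CACGTG, which reads the same on both strands and which the clock proteins CLOCK and BMAL1 bind.
Tef, chr15:81811164-81811413, plus strand: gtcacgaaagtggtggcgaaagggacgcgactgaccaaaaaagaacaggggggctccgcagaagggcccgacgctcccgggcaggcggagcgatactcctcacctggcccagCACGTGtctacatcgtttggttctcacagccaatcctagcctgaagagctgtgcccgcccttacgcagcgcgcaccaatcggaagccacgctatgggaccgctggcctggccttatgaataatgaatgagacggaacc

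The Hspb1 window holds 2 matches, which begin 117 and 97 bases before the start, and the windows of Hspa1a and Hspa1b hold 1 each, 104 bases before the start. The windows of Hspa1a and Hspa1b are identical at 247 of 250 bases. The 2 genes are near-identical copies, so each gene's own count is uncertain. Of the 23 chaperone genes tested, 18 were found in the promoter table and 8 of these (44.4%) held a heat shock motif, against 14.5% of all 27025 genes in the table. Of the 14 clock genes tested, 13 were found and 5 (38.5%) held the E-box, against 6.86% of all genes. Tef was among the 5, while Nr1d1, Hlf and Dbp, which are also named below, were not. A match is a description of the sequence and says nothing of binding in these cells.

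The gated cells carried the general capillary markers. Levels in this and the next 3 paragraphs are CPM, the usual depth-scaled count: the UMIs of a gene in the gated cells of a library over all UMIs of those cells, times a constant. Gpihbp1, which anchors lipoprotein lipase on the capillary wall, was used by the rule, and its level of 1085 CPM in WT A, 1042 in WT B, 908 in mutant A and 1003 in mutant B is a description. Kit, the receptor for stem cell factor, stood at 281, 251, 319 and 249 CPM in the same order, against 120 to 172 CPM in aerocytes. Cd93, a transmembrane receptor of endothelial cells, stood at 1093, 1134, 1306 and 1156 CPM, against 505 to 718 CPM in aerocytes. Both genes were higher in baseline cells than in aerocytes in all 4 libraries. They did not set baseline cells apart from general capillary cells with Plvap and Esm1 of 3 or more, which the rule leaves out. There Kit stood at 238, 249, 341 and 338 CPM and Cd93 at 1059, 1132, 1484 and 1451 CPM. Both were above baseline cells in the mutant libraries and slightly below them in the WT libraries.

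Sema3c, a secreted semaphorin, was the most abundant marker, at 2770 CPM in WT A, 2265 in WT B, 3375 in mutant A and 2484 in mutant B. Ntrk2, the receptor of the neurotrophin BDNF, stood at 632, 472, 658 and 491 CPM, with both A libraries above both B libraries. Aplnr, the apelin receptor, was the least abundant, at 58.1, 43.1, 75.3 and 51.6 CPM. Over the 4 libraries, the ratio of baseline cells to aerocytes was 1.81 to 2.20 for Aplnr, 1.56 to 1.92 for Sema3c and 1.38 to 2.02 for Ntrk2. These markers did not separate baseline cells as well from arterial and venous cells: the ratio for Cd93 was 0.960 to 1.14 against arterial cells and 1.03 to 1.15 against venous cells. Aerocytes showed the reverse for Kdr, which was 1025 to 1320 CPM there and 150 to 212 CPM in baseline cells, and for Car4, a carbonic anhydrase, which was 1086 to 1313 CPM there and 145 to 257 CPM in baseline cells. The gates were drawn on the same counts, so none of these differences between gates was tested.

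**Figure D1:**
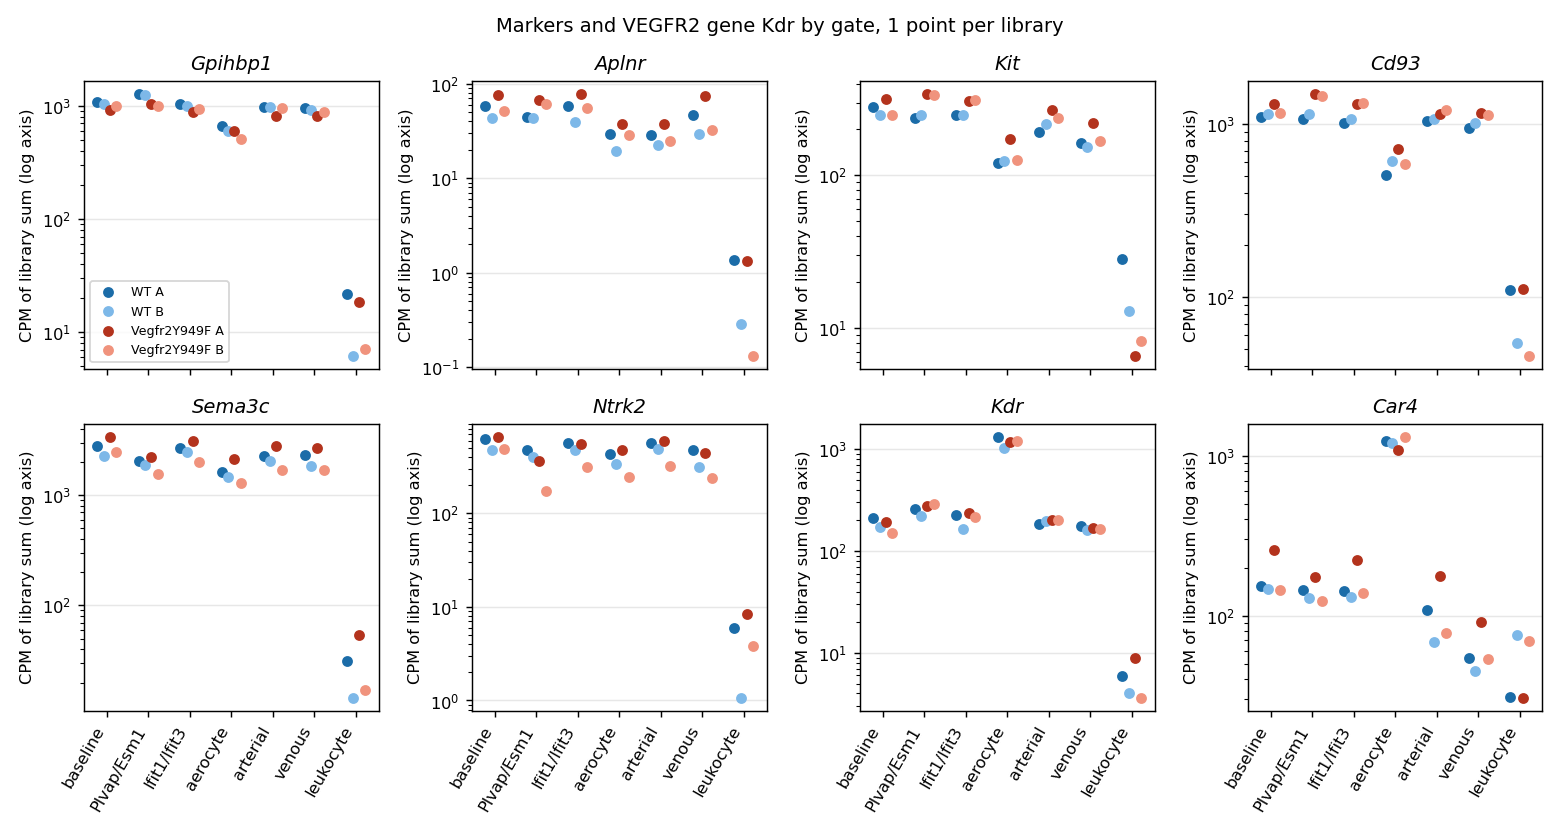
Level of 8 genes (CPM, log axis) in 7 gates, with 1 point for each of 4 libraries. Kit, Cd93, Sema3c, Ntrk2 and Aplnr lie higher in baseline cells than in aerocytes in every library, while Kdr and Car4 lie higher in aerocytes. The gates of cells with Plvap and Esm1 of 3 or more, or Ifit1 and Ifit3 of 2 or more, are general capillary cells that the rule leaves out.

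Cell by cell, the markers were patchy at equal depth. After each cell was thinned to 1000 UMIs, Sema3c had a UMI in 82.0 to 90.7% of baseline cells over the 4 libraries, Cd93 in 60.3 to 65.8%, Ntrk2 in 33.9 to 44.7%, Kit in 19.0 to 28.1% and Aplnr in 4.31 to 7.92%. Without thinning the range was 96.3 to 98.1% for Sema3c and 18.5 to 24.1% for Aplnr. In cells of the leukocyte gate, the thinned share was 1.52 to 6.17% for Sema3c, 5.36 to 10.9% for Cd93, 0.19 to 1.37% for Ntrk2, 0.50 to 2.73% for Kit and at most 0.17% for Aplnr. Some myeloid cells carry Cd93 and mast cells carry Kit, so the shares of these 2 genes cannot be read as a background level. All baseline shares lay above these levels. The median depth was 3826 to 4648 UMIs in baseline cells and 3035 to 5062 UMIs in leukocytes. Of the 11775 cells, 414 had none of the 5 markers after thinning, 4769 had 2 and 50 had all 5.

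Markers of other cell types were low but present. Alveolar type 2 markers summed to 50.5 CPM in WT A, 391 in WT B, 109 in mutant A and 85.6 in mutant B, with none of the 4 markers at 0. Airway markers, mainly the club cell secretoglobin Scgb1a1, summed to 465, 968, 1069 and 499 CPM. Fibroblast markers summed to 62.5, 52.2, 75.0 and 69.2 CPM, with Col1a2 at 0 through the rule. Leukocyte markers summed to 117, 145, 312 and 76.8 CPM, with Ptprc at 0 through the rule, and were highest in mutant A. Among all kept cells, airway markers summed to 8344 CPM in WT A, 17555 in WT B, 15953 in mutant A and 10642 in mutant B.

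The rule's last 2 limits cut through a range of values. Just inside the Plvap and Esm1 limit, 1053 cells had 2 UMIs of these genes, and just outside it, 557 cells had 3. Just inside the Ifit1 and Ifit3 limit, 1648 cells had 1 UMI, and just outside it, 649 cells had 2. Baseline cells were shallower than the cells the limits removed: their median depth was 3826 to 4648 UMIs per library, against 5983 to 7211 for cells with Plvap and Esm1 of 3 or more. The gated cells of any 2 libraries shared 1 to 5 barcodes. In every library, cells with Xist and no Y-linked UMI (28.8 to 37.7%) stood beside cells with Y-linked UMIs and no Xist (24.7 to 31.5%), so each pool held both sexes.

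Genes outside the rule were also higher in baseline cells than in the other endothelial types. Of 3088 genes with at least 50 CPM that the rule did not use, 109 were higher in baseline cells than in aerocytes, arterial cells and venous cells in all 4 libraries. The 15 with the largest smallest ratio were small in size: the log2 ratio to the highest of the other 3 gates was 0.13 or more for all 15 and reached 0.73. The general capillary cells that the rule leaves out were not part of this comparison, and Sema3c, 1 of the 15, stood at 2687, 2441, 3118 and 2017 CPM in those with Ifit1 and Ifit3 of 2 or more, above baseline cells in WT B. Tcim, a regulator of Wnt signalling, stood at 626 CPM in WT A, 546 in WT B, 533 in mutant A and 467 in mutant B, with a log2 ratio of 0.32 to 0.58. Wfdc1, a secreted protease inhibitor, stood at 328, 362, 305 and 316 CPM, with a log2 ratio of 0.28 to 0.73. Rasgrp3 and Rapgef4, which activate small GTPases, stood at 238 to 356 and 50.9 to 72.0 CPM over the libraries, with log2 ratios of 0.17 to 0.37 and 0.16 to 0.27. Glp1r, the receptor of the incretin GLP-1, stood at 297, 234, 330 and 264 CPM, with a log2 ratio of 0.13 to 0.40.

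The other genes of the 15 were Mlec, Nova2, AU020206, N4bp3, Ptprk, Sema3c, Gimap9, Arhgap28, Dgkh and, in first place, Scgb1a1 (log2 ratio 0.61 to 0.72). Scgb1a1 is a product of airway club cells. Its level in baseline cells, 456 CPM in WT A, 959 in WT B, 1044 in mutant A and 490 in mutant B, was lowest in WT A and mutant B, as were the airway marker sums of all kept cells, and baseline cells were the shallowest of the 4 gates. The part of free RNA in the levels of the 15 genes was not tested.

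The genes with the highest ratio of variance to mean between cells included haemoglobin, immediate early and mitochondrial genes. At 1000 UMIs per cell, the median ratio of variance to mean over 3033 genes was 1.04 to 1.05 in each library, close to the 1 that counting alone gives. Genes were ranked by their lowest ratio over the 4 libraries, and of the first 15 the haemoglobin genes Hbb-bs and Hba-a1 led, at 97.1 to 208 and 73.4 to 105. They were followed by the nuclear RNA Malat1 at 15.7 to 18.5 and by Mgp, a matrix protein that binds BMP, at 3.83 to 12.2. The immediate early genes Fos, Egr1 and Ccn1 had ratios of 3.17 to 4.03, 2.74 to 3.75 and 2.43 to 2.90, and the inducible chaperone Hspa1a had 3.19 to 4.26. Sftpc, a surfactant gene of alveolar type 2 cells, was outside the 15 but reached 34.3 in WT B, where Mgp was at its highest. The others were Fth1, mt-Atp6, mt-Co3, mt-Co2, Iigp1, Adamts1 and Emp2. Mgp was concentrated: the top 1% of cells held 31.3% of its thinned UMIs in WT A, 51.1% in WT B, 31.5% in mutant A and 34.2% in mutant B.

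The marker genes and Kdr had lower ratios. For the same relative variation the ratio grows with the mean count, so genes of unlike level cannot be compared in relative variation by it. In WT A the mean per thinned cell was 9.99 UMIs for mt-Atp6 and 0.217 for Kdr. Sema3c had a ratio of 1.49 to 1.76, Cd93 1.24 to 1.34, Ntrk2 1.12 to 1.21, Kdr 1.09 to 1.22 and Kit 1.06 to 1.15. Sema3c ranked highest of the 5, in place 64 of 3033.

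Baseline cells were a smaller share of the mutant libraries. They made up 36.8% of kept cells in WT A (95% Wilson interval 35.9 to 37.6), 26.2% in WT B (25.3 to 27.0), 20.8% in mutant A (20.1 to 21.5) and 20.9% in mutant B (20.2 to 21.7), where the intervals cover counting error only. Both mutant libraries lay below both WT libraries, with means of 31.5% ± 7.49 (SD, n = 2) in WT and 20.9% ± 0.0928 (SD, n = 2) in mutant lungs. The exact two-sided permutation p was 0.333, the smallest that 2 against 2 libraries can give, so the difference of -10.6 percentage points cannot pass a threshold of 0.05. It rested in part on WT A: it was -5.29 points without WT A and -15.9 points without WT B.

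The share of all general capillary cells, with the 2 last limits lifted, did not separate the genotypes. It was 45.6% in WT A, 34.2% in WT B, 30.7% in mutant A and 34.3% in mutant B, with an exact permutation p of 0.667. Within these 16240 cells, the baseline state made up 80.6% in WT A, 76.4% in WT B, 67.8% in mutant A and 61.1% in mutant B. Cells with Plvap and Esm1 of 3 or more made up 8.55, 13.1, 20.9 and 25.5%, and cells with Ifit1 and Ifit3 of 2 or more 12.4, 12.9, 15.5 and 23.1%. In each of these 3 states the mutant libraries lay beyond both WT libraries, at an exact permutation p of 0.333. With each cell thinned to 1000 UMIs before the gate was applied, the baseline share of kept cells was 35.2, 26.7, 24.1 and 23.4%, in the same order.

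**Figure D2:**
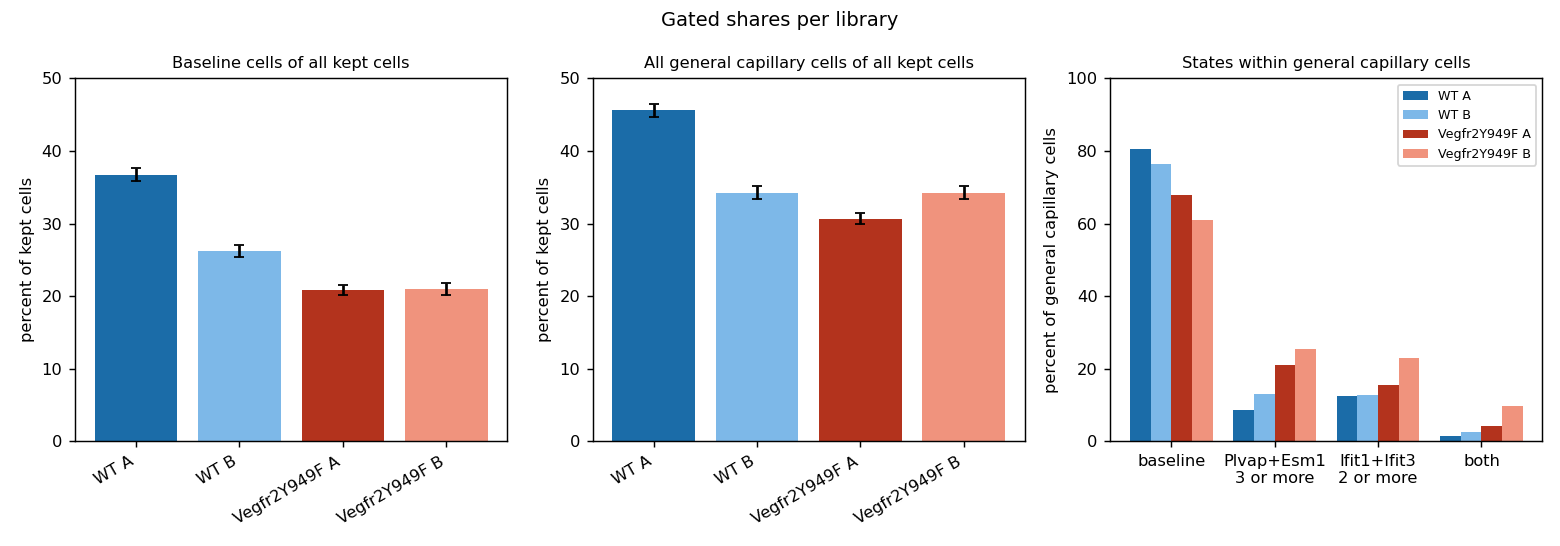
Shares per library: baseline cells and all general capillary cells as percent of kept cells (bars with 95% Wilson intervals), and the states as percent of general capillary cells. The baseline share is lower in both mutant libraries, at 20.8 and 20.9% of kept cells, while the share of all general capillary cells overlaps between genotypes.

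For the comparison of genotypes, the UMIs of the gated cells were summed within each library, since cells of 1 pool are not replicates. The sums held 20308509 UMIs in WT A, 14934856 in WT B, 12127046 in mutant A and 11417771 in mutant B. From here on, CPM are scaled by edgeR's TMM factors, fold changes are log2 of mutant over WT with their standard error (SE), and a gene is called at a Benjamini-Hochberg adjusted p under 0.05. The p-values measure the spread between 2 pools per genotype.

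No gene was called between the genotypes. Of 12498 genes tested with edgeR's quasi-likelihood test, 0 passed (0.0%), and 82 (0.656%) had an unadjusted p under 0.05. The smallest adjusted p was 0.9999. DESeq2 called 0 genes too: its smallest adjusted p was 0.483, and its unadjusted p was under 0.05 for 43 genes. Leaving out 1 library gave 3 to 23 calls, with 23 when WT A was left out, and the set letter as a replicate block gave 7. Both mutant libraries lay above both WT libraries for 9.96% of genes and below both for 10.2%. Fold changes were above 0 for 48.9% of genes and below 0 for 51.1%, with a median of -0.01. The groups of genes below are therefore described by their counts and medians beside these shares, and none of their differences passed the test.

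Kdr was not called between the genotypes. It stood at 213 CPM in WT A, 179 in WT B, 180 in mutant A and 154 in mutant B, so the groups overlapped, and the log2 fold change was -0.23 ± 0.19 (SE). Among its ligands, Vegfa stood at 459, 423, 518 and 448 CPM, a log2 fold change of 0.13 ± 0.20. Of the 9 VEGF receptors and ligands tested, 4 were higher and 5 lower in mutant cells, with a median of -0.02. Of 20 VEGFR2 effectors, 10 were higher and 10 lower, with a median of -0.00. Src, the kinase that TSAd recruits, was near the limit of detection, at 0.69, 0.76, 1.77 and 1.08 CPM, a log2 fold change of 0.98 ± 0.50. Both mutant libraries lay above both WT libraries for Src.

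Junction and capillary genes showed no common direction. Of 17 junction genes, 8 were higher and 9 lower, with a median of -0.01. Cldn5, the main tight junction claudin of endothelium and one of the genes the rule used, stood at 2323 CPM in WT A, 2381 in WT B, 1722 in mutant A and 2233 in mutant B, a log2 fold change of -0.25 ± 0.25. Of the 6 general capillary markers, 4 were higher and 2 lower. Aplnr stood at 58.3, 44.7, 70.4 and 53.2 CPM, a log2 fold change of 0.26 ± 0.21 with overlapping groups, and Gpihbp1 had a log2 fold change of -0.20 ± 0.22. Of 15 genes of capillary lipid handling, 8 were higher and 7 lower, and Fabp4, a fatty acid carrier, was high in mutant B alone (6.82, 3.96, 4.09 and 22.8 CPM).

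Chaperone genes were all lower in mutant cells. Of the 23 tested, 23 had a fold change below 0, with a median of -0.50 against -0.01 for all genes. In 11 of 23 both mutant libraries lay below both WT libraries, against 10.2% of all genes, and in 0 of 23 above both. None was called, and 3 had an unadjusted p under 0.05 (Hspb1, Hspe1 and Hsph1). The list was chosen with earlier results on these samples known, so the direction is not independent evidence.

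Hspb1, a small heat shock protein (chr5:135887919-135889563), stood at 1954 CPM in WT A, 1604 in WT B, 592 in mutant A and 1168 in mutant B. The groups did not overlap, mutant A was lowest, and the log2 fold change was -1.02 ± 0.34 (edgeR adjusted p = 0.9999). Hsph1, a nucleotide exchange factor of HSP70 (chr5:149614287-149636376), stood at 268, 159, 112 and 113 CPM, a log2 fold change of -0.92 ± 0.26. Both mutant libraries were alike, and WT A was the highest. Hspe1, the mitochondrial co-chaperonin (chr1:55088132-55091307), stood at 393, 270, 180 and 209 CPM, a log2 fold change of -0.77 ± 0.23. Hspa1b, an inducible HSP70 (chr17:34956436-34959238), stood at 1258, 1502, 1015 and 905 CPM, a log2 fold change of -0.52 ± 0.23. Its copy Hspa1a (chr17:34969190-34972156) stood at 1605, 3293, 1259 and 1937 CPM, with overlapping groups and WT B the highest.

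The size of the chaperone difference depended on the set. The median log2 difference of the 23 genes was -0.72 between the A libraries and -0.16 between the B libraries. Leaving out WT A brought the median to -0.26, with 4 of 23 genes above 0, and leaving out mutant B to -0.71. Other classes showed it too: the median was -0.43 in aerocytes and -0.46 in venous cells, with all 23 genes below 0 in both, and these sums come from the same 4 suspensions. Summed CPM of the 23 genes was 23294, 22794, 14940 and 18877 in baseline cells and 22493, 20683, 14772 and 18194 in all kept cells. Of 19 genes of the immediate early and dissociation list, 13 were lower. In 1 of 19 both mutant libraries lay below both WT libraries, against 10.2% of all genes. The list had a median of -0.15. Its direction turned with the library left out: the median was -0.51 without mutant B and -0.40 without WT A, but 0.15 without WT B and 0.22 without mutant A. Their summed CPM was 23292, 33281, 20976 and 32279, high in both B libraries. Their part in the chaperone difference was not tested.

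Clock genes leaned the other way. Of the 14 tested, 13 had a fold change above 0, with a median of 0.24, and in 8 of 14 both mutant libraries lay above both WT libraries, against 9.96% of all genes. None was called. Nr1d1, a nuclear receptor that represses Arntl (chr11:98767932-98775333), stood at 76.9 CPM in WT A, 75.2 in WT B, 101 in mutant A and 106 in mutant B, a log2 fold change of 0.44 ± 0.16. Tef, a transcription factor of the clock's output (chr15:81802421-81826863), stood at 31.7, 30.9, 40.8 and 41.1 CPM, a log2 fold change of 0.39 ± 0.15. For both genes the 2 libraries of each genotype lay close together and the groups did not overlap. Hlf and Dbp, of the same family as Tef, had log2 fold changes of 0.57 ± 0.24 and 0.61 ± 0.28. Dbp stood at 30.5, 29.5, 31.9 and 59.6 CPM and was thus high in mutant B alone.

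The clock difference was present in both sets, with a median of 0.15 between the A libraries and 0.26 between the B libraries. Without each library in turn the median stayed between 0.21 and 0.30. The median was 0.15 in aerocytes and 0.26 in venous cells. It was 0.06 in general capillary cells with Plvap and Esm1 of 3 or more, where Nr1d1 had a log2 fold change of -0.35. It was 0.014 in those with Ifit1 and Ifit3 of 2 or more, where 8 of 14 genes were higher, and 0.10 in arterial cells. The labels give no time of day at which lungs were taken, so its part in these values was not tested.

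**Figure D3:**
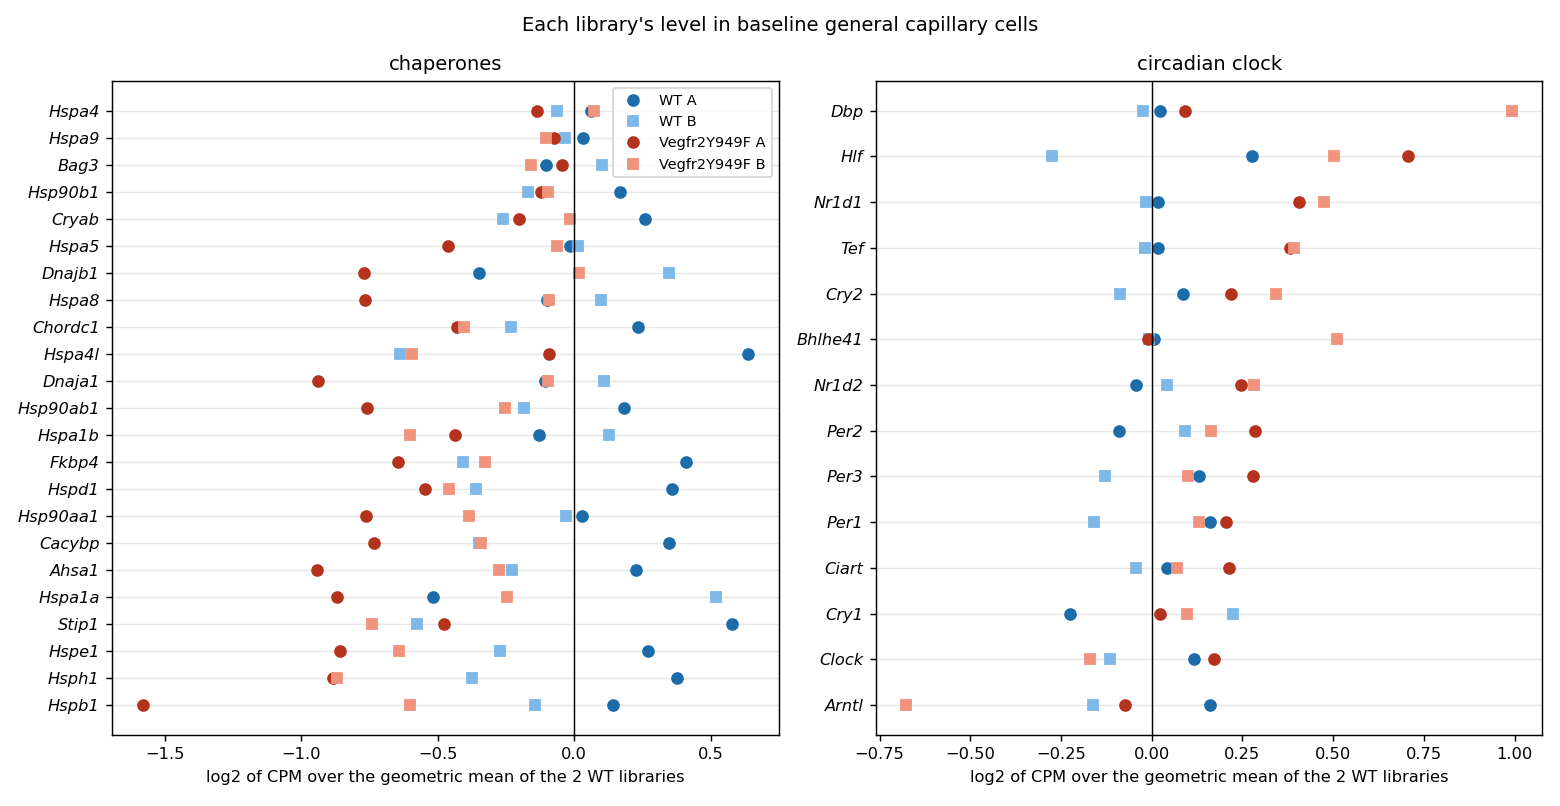
Level of each chaperone and clock gene tested in each library, as log2 of CPM over the geometric mean of the 2 WT libraries. Chaperones lie left of 0 most clearly in mutant A, and Nr1d1 and Tef lie right of 0 in both mutant libraries.

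Antigen presentation genes leaned lower in mutant cells, and none was called. Of 8 MHC class II genes, 6 were lower, with a median of -0.26. Of the 8, 4 lay below both WT libraries, against 10.2% of all genes. H2-Ab1, a class II beta chain, stood at 1184 CPM in WT A, 1153 in WT B, 852 in mutant A and 1072 in mutant B, a log2 fold change of -0.28 ± 0.23. H2-Eb1 stood at 1128, 1293, 819 and 1113 CPM, a log2 fold change of -0.33 ± 0.25. H2-DMa, which loads peptides onto class II molecules, stood at 239, 227, 206 and 188 CPM, a log2 fold change of -0.24 ± 0.18. The median between the A libraries was -0.42 and between the B libraries -0.15. Of 14 MHC class I genes, 9 were lower and 5 higher, and the median was -0.10. Of the 14, 4 lay below both WT libraries, against 10.2% of all genes. Among the class I genes, H2-Q7 stood at 661, 684, 498 and 596 CPM. It belongs to a family of close copies, so its own count is uncertain.

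The rule limits Ifit1 and Ifit3, which are members of the interferon list. Of 28 tested, 21 were higher, with a median of 0.11, and 5 of 28 lay above both WT libraries, against 9.96% of all genes. Ifit3, which the rule limits, is among these 5. Ifit2, a further member of the Ifit family, stood at 8.26, 6.18, 10.9 and 9.75 CPM, a log2 fold change of 0.51 ± 0.24. The median ran from 0.026 without mutant A to 0.22 without mutant B. With the 2 limits lifted it was 0.25.

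Among genes of vessel growth, 13 of 17 tip cell genes were higher, with a median of 0.13. In 5 of 17 both mutant libraries lay above both WT libraries, against 9.96% of all genes. Esm1, which the rule limits, is a member of the list and 1 of these 5. Cxcr4, the chemokine receptor of tip cells, stood at 4.25, 5.00, 6.55 and 5.24 CPM, a log2 fold change of 0.36 ± 0.27 in baseline cells and 0.92 in all general capillary cells. Lama4, a laminin chain of the vessel wall, stood at 18.0, 13.8, 21.7 and 20.7 CPM, a log2 fold change of 0.41 ± 0.19, and Unc5b, a netrin receptor, at 26.4, 28.9, 30.8 and 33.1 CPM. Of 6 angiopoietin and Tie genes, 6 were higher, with a median of 0.10. In 1 of 6 both mutant libraries lay above both WT libraries, against 9.96% of all genes. Angpt1, the activating ligand of the receptor Tie2, was scarce at 4.45, 4.59, 7.09 and 6.77 CPM, a log2 fold change of 0.62 ± 0.24 with groups that did not overlap. Of 12 semaphorin and plexin genes, 11 were higher, with a median of 0.13. Sema4c stood at 94.7, 91.8, 110 and 102 CPM, and Plxna2 at 123, 115, 145 and 124 CPM.

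Genes of signalling and metabolism showed smaller or mixed differences. Of 15 BMP pathway genes, 9 were lower and 3 of 15 lay below both WT libraries, against 10.2% of all genes. These were Acvrl1, a BMP9 receptor (804, 793, 593 and 780 CPM), Id3, a target of BMP signalling (1368, 1122, 1104 and 1047 CPM), and Smad9 (2.87, 2.85, 1.93 and 2.08 CPM). Of 12 Notch genes, 8 were higher and 4 lower, and Nrarp, a Notch target, stood at 60.3, 54.9, 40.9 and 50.4 CPM, a log2 fold change of -0.34 ± 0.17. Of 26 genes of glycolysis and hypoxia targets, 18 were lower, with a median of -0.10 that was -0.21 between the A libraries and -0.00 between the B libraries. P4ha1, a collagen prolyl hydroxylase, was high in WT A alone (105, 45.8, 53.3 and 45.2 CPM). Pfkfb3, a regulator of glycolysis, stood at 55.7, 60.4, 73.7 and 65.1 CPM. Of 18 vasoactive genes, 10 were higher, among them Ddah1, which breaks down an inhibitor of nitric oxide synthase, at 54.5, 57.8, 59.0 and 77.9 CPM. The shear-responsive factor Klf2 stood at 1794, 1519, 1320 and 1622 CPM, with overlapping groups.

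**Figure D4:**
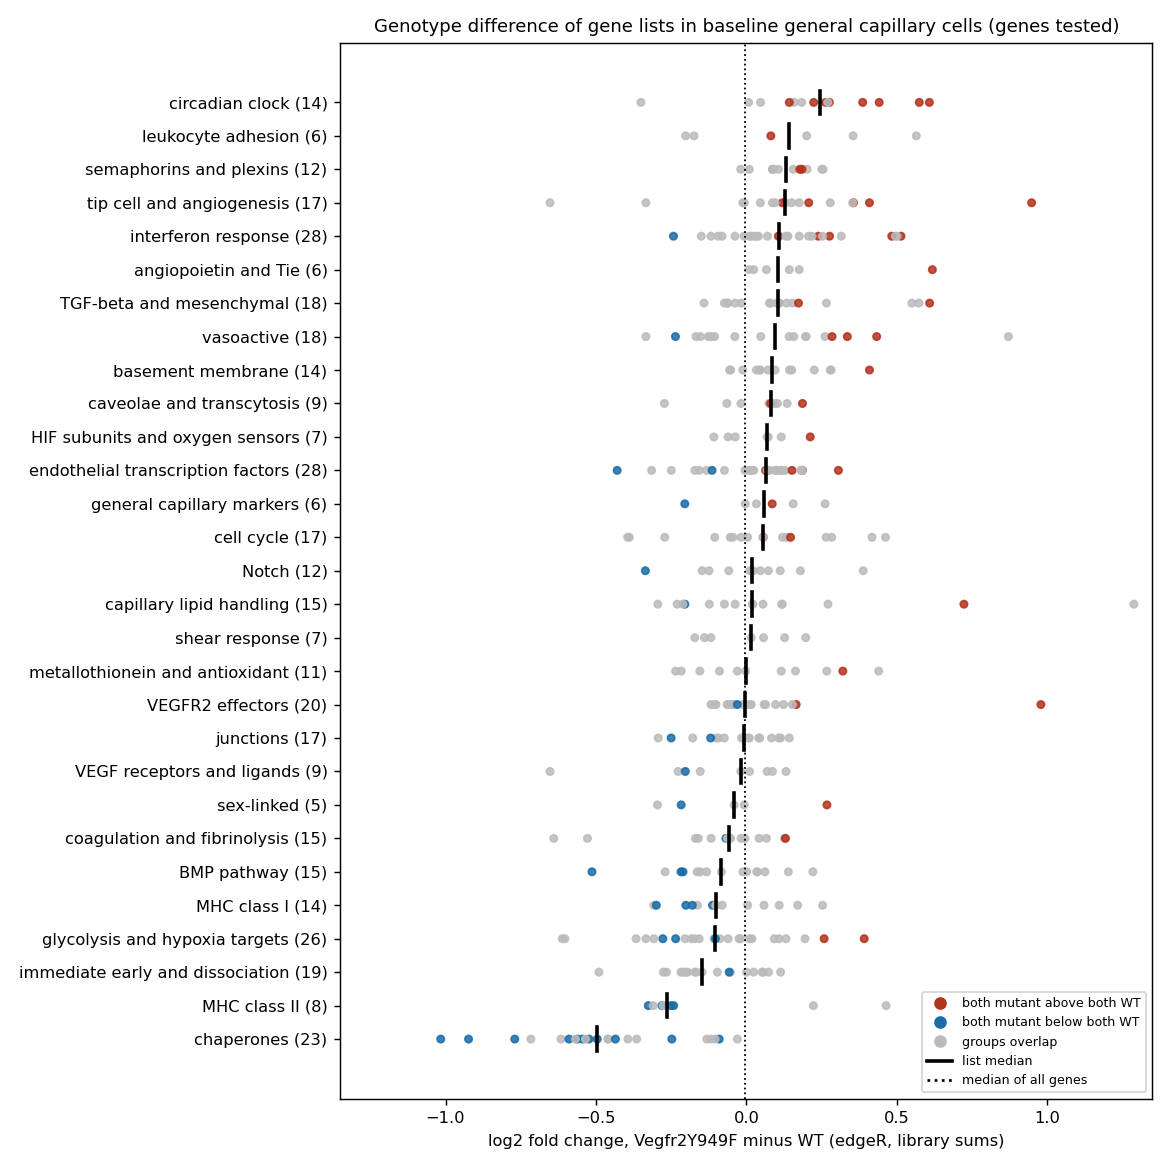
Fold change of every tested gene of 29 lists in baseline cells (log2, mutant minus WT), coloured where both mutant libraries lie beyond both WT libraries. Black bars are list medians and the dotted line is the median of all genes, -0.01. Chaperones lie lowest, at a median of -0.50, and clock genes highest, at 0.24.

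Outside the lists, the genes of smallest unadjusted p with at least 10 CPM and separated groups were the following, none of which passed the test. Higher in mutant cells were Aldh1a1, a retinaldehyde dehydrogenase (13.2, 15.2, 28.4 and 20.7 CPM, log2 fold change 0.79 ± 0.21), and Atp13a3, a polyamine transporter (46.6, 48.7, 95.9 and 60.2 CPM, 0.71 ± 0.23). Ogn, a proteoglycan made mainly by fibroblasts, stood at 12.2, 13.3, 20.6 and 18.2 CPM, a log2 fold change of 0.60 ± 0.18. Inmt, a methyltransferase abundant in lung, stood at 62.4, 56.4, 98.7 and 72.3 CPM, a log2 fold change of 0.53 ± 0.20. Gm26802, Hpcal4, Myh10 and Wdfy1 had log2 fold changes of 0.64, 0.61, 0.53 and 0.51.

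Markers of other cells went in both directions. Of 6 leukocyte markers tested, 4 were higher and 2 lower, with a median of 1.27 between the A libraries and -0.74 between the B libraries. All 4 alveolar type 2 markers had a fold change below 0, with a median of -0.79, but the sets differed. Their median was 1.04 between the A libraries and -1.80 between the B libraries. In 0 of 4 both mutant libraries lay below both WT libraries, against 10.2% of all genes. Tyrobp, an adaptor of myeloid cells, stood at 7.66, 7.64, 20.9 and 10.4 CPM and was highest in mutant A, where the leukocyte marker sum was highest. Pdgfra, a fibroblast receptor, stood at 4.25, 3.47, 8.63 and 6.05 CPM, with 5 of 6 fibroblast markers tested higher in mutant cells. With the gate applied to cells thinned to 1000 UMIs, the log2 fold change was -0.011 for Inmt and -0.020 for Pdgfra. The part of such RNA in the differences of Aldh1a1, Inmt and Ogn was not tested. Mgp stood at 157, 146, 216 and 190 CPM, a log2 fold change of 0.42 ± 0.18.

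Lower in mutant cells, beside the chaperones and haemoglobin, were Bag2, a co-chaperone of HSP70 that was not on the chaperone list (12.6, 12.6, 6.71 and 9.48 CPM, log2 fold change -0.65 ± 0.23), and H2aw, a histone gene (84.3, 64.5, 52.0 and 51.6 CPM, -0.52 ± 0.18). Fam181b stood at 42.5, 46.4, 29.1 and 34.4 CPM, a log2 fold change of -0.49 ± 0.17. S1pr4, a sphingosine-1-phosphate receptor, stood at 48.8, 42.3, 32.8 and 34.6 CPM, a log2 fold change of -0.44 ± 0.16. These 4 genes were picked among those with both mutant libraries below both WT libraries, so their separation follows from the choice.

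Haemoglobin genes were lower in mutant baseline cells, and a handful of cells held most of their UMIs. At least 1 haemoglobin UMI was found in 10.6% of baseline cells in WT A, 14.1% in WT B, 20.7% in mutant A and 8.22% in mutant B. Hba-a2 stood at 181 CPM in WT A, 268 in WT B, 117 in mutant A and 124 in mutant B, a log2 fold change of -0.90 ± 0.23, and Hbb-bt at 57.8, 108, 19.7 and 51.5 CPM, -1.22 ± 0.45. With the set letter as a replicate block, edgeR called 7 genes, among them Hba-a2, Hba-a1, Hbb-bs and Hbb-bt (adjusted p 0.0271, 0.0248, 0.00153 and 0.000808) and Gdf15, a stress-induced cytokine (47.4, 121, 31.0 and 57.0 CPM, adjusted p 0.0258). In WT A 20 cells with at least 1% haemoglobin UMIs held 95.4% of all haemoglobin UMIs of the gate, in WT B 9 cells held 96.1%, in mutant A 9 cells held 85.9%, and in mutant B 3 cells held 96.3%. Without these cells, and without the block, Hbb-bt had a log2 fold change of 0.25, so its direction turned on them. Hba-a2, Hba-a1 and Hbb-bs did not change direction without them.

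Whether genotype differences in baseline cells differ from those in other endothelial classes was tested with an interaction term. Against 3342 aerocytes, 10 of 12575 genes were called (0.0795%), and 463 had an unadjusted p under 0.05. Of the 10, 4 were haemoglobin genes. In aerocytes, haemoglobin-rich cells were also few, at 3 in WT A, 2 in WT B, 12 in mutant A and 7 in mutant B. Without haemoglobin-rich cells of either class, an alternative added after seeing the data, Hba-a2 had an interaction of 0.02 and 6 genes were called.

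Lyve1, a hyaluronan receptor known from lymphatic vessels, stood at 205 CPM in WT A, 185 in WT B, 145 in mutant A and 170 in mutant B in baseline cells, and at 102, 91.6, 158 and 204 CPM in aerocytes. The genotype difference in baseline cells minus that in aerocytes was -1.20 ± 0.10 on the log2 scale (edgeR adjusted p = 4.58e-05). Mutant libraries were the lower ones in baseline cells and the higher ones in aerocytes. Cxcl10, an interferon-induced chemokine, had an interaction of -1.03, with 31.1, 116, 29.0 and 121 CPM in baseline cells and 26.1, 105, 50.1 and 221 CPM in aerocytes. Gm8797 had an interaction of -0.94, and Plvap, which the rule limits in baseline cells, one of -0.93.

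Pcolce2, an enhancer of procollagen processing, and Sema5a, a transmembrane semaphorin, went the other way, at 0.71 and 0.61. Pcolce2 stood at 16.6, 20.3, 21.5 and 28.7 CPM in baseline cells and at 159, 180, 124 and 159 CPM in aerocytes. Sema5a stood at 122, 68.0, 166 and 67.7 CPM in baseline cells and at 175, 97.5, 152 and 66.0 CPM in aerocytes, with both A libraries above both B libraries in each class.

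The limits on Plvap, Esm1, Ifit1 and Ifit3 were set on baseline cells only. Lyve1, Cxcl10, Gm8797, Plvap and Sema5a were called in that setting, but not with the limits on both classes or on neither. The limits on both classes left 2396 aerocytes, and the part of this smaller number of cells in the lost calls was not tested. With the same limits on aerocytes, an alternative added after seeing the data, 0 genes were called by edgeR, and the interaction was -0.28 for Lyve1, -0.47 for Cxcl10, -0.57 for Gm8797, 0.17 for Plvap, 0.50 for Pcolce2 and 0.43 for Sema5a. The haemoglobin interactions were further from 0 there, at -3.88 for Hba-a2, -3.79 for Hba-a1, -4.29 for Hbb-bt and -4.20 for Hbb-bs, though not called. With the limits lifted from the capillary cells, 9 genes were called, and the interaction was -0.46 for Lyve1 and 0.60 for Pcolce2, of which Pcolce2 was called, as were the 4 haemoglobin genes.

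Against 2148 venous cells, 2 of 12229 genes were called (0.0164%), and 472 had an unadjusted p under 0.05. The 2 called were Hbb-bt and Cyp4b1. The interaction of Hbb-bt was -5.17, and -5.69 and still called with the 2 limits on venous cells too, but 0.80 and not called without haemoglobin-rich cells, so that it rested on those cells. Cyp4b1, a cytochrome P450 of lung, stood at 66.4 CPM in WT A, 73.8 in WT B, 78.7 in mutant A and 88.2 in mutant B in baseline cells and 46.3, 33.2, 103 and 142 CPM in venous cells. Its interaction was -1.36 ± 0.17 (edgeR adjusted p = 0.0160), and both mutant libraries lay above both WT libraries in each class. With the 2 limits set on venous cells too, it was -0.23 with an adjusted p of 0.999. In all general capillary cells, Cyp4b1 had a genotype log2 fold change of 1.17, against 0.25 in baseline cells, and Lyve1 one of 0.42, against -0.31.

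**Figure D5:**
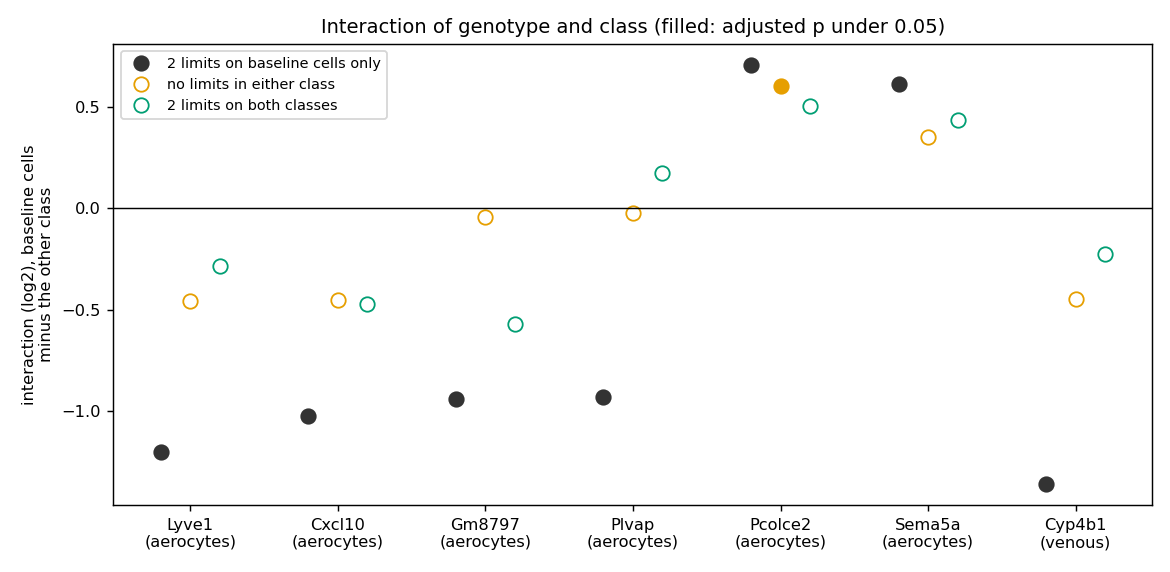
Interaction of genotype and class (log2, baseline cells minus the other class) for the called genes other than haemoglobin, under different choices of cells. The choices are the 2 limits on baseline cells only, no limits in either class, and the 2 limits on both classes. Filled points have an edgeR adjusted p under 0.05. Lyve1 lies at -1.20, -0.46 and -0.28 in that order.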

How the data were processed

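Single-cell RNA was measured with 10x Genomics libraries from 4 pools of lung cells after red cell lysis. The deposited matrices hold raw UMI counts per gene and barcode, made with Cell Ranger 6.1.1 per the file headers. The submitters' processing notes also name mm10, fastp, UMI-tools and Seurat 4.1.0. Of 53287 deposited barcodes, 44835 had at least 500 genes, at least 1000 UMIs and under 15% mitochondrial UMIs. The authors' cell annotation was not used here, and cells were gated by the rule that opens the results. No doublet caller entered the gate, and leaving out the highest 8% of Scrublet scores was an alternative.

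Counts were summed per library and tested with edgeR 4.0.16 (quasi-likelihood, TMM, filterByExpr, Benjamini-Hochberg adjustment), with DESeq2 1.42.0 as an alternative. Interactions had a term per library. On simulated counts for the genotype comparison (12353 genes), edgeR recovered 99% of genes changed by 1 on the log2 scale, with 2 false calls. For the interactions it recovered 73% with 10 false calls (aerocytes, 12058 genes) and 65% with 6 (venous cells, 11691 genes). The simulated counts gave every gene the same set spread, with no other library effect. In the data the spread differed between genes, with an SE of 0.21 for Cd93 and 0.61 for Atf3. The simulated shares therefore do not measure how many real changes would be recovered. P-values measure only the spread between pools.

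Members and gene lists were chosen with earlier results of these data known. Named genes were the markers, Kdr, up to 4 of smallest p per list, 10 per direction with separated groups and at least 10 CPM, 15 by level beside other gates, 15 by variation, and 5 per direction per interaction. The limits on both classes, all general capillary cells and removal of haemoglobin-rich cells in the interactions were alternatives added after seeing the data.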

Additional observations from a re-analysis of the deposited data

Results flagged for a closer look

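In 12 cases the genotype difference in baseline cells differed from that in another endothelial class by edgeR's interaction test. Against aerocytes the log2 difference of differences was -1.20 for Lyve1, -1.03 for Cxcl10, -0.94 for Gm8797, -0.93 for Plvap, 0.71 for Pcolce2 and 0.61 for Sema5a. The haemoglobin genes gave -2.91 for Hba-a2, -2.66 for Hba-a1, -3.59 for Hbb-bt and -3.36 for Hbb-bs. Against venous cells it was -5.17 for Hbb-bt and -1.36 for Cyp4b1. The value of Plvap follows in part from the rule, which limits it in baseline cells only, and was 0.17 with the limits on both classes. The 5 haemoglobin values were between 0.022 and 0.80 without haemoglobin-rich cells, and none was then called. With the limits on both classes, Lyve1 was -0.28 and Cyp4b1 -0.23, and neither was called.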

How the results depend on the processing

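The count of genes called between genotypes, 0 with all libraries, was 3 to 23 when a library was left out (23, 7, 3 and 5 on removing WT A, WT B, mutant A and mutant B, where the lone library left is assumed to vary like the other genotype) and 23 with no filter on low counts. With the set letter as a replicate block, 7 genes were called; deviations of same-letter libraries correlated at 0.34, which 2 groups of 2 fix for both letters alike, and its meaning is not given. The other alternatives called 0. Interaction calls against aerocytes, 10 in all, were 35 to 74 when a library was left out (35, 41, 74 and 54 in that order), 12 with RLE factors, 38 with no filter, 6 without haemoglobin-rich cells, 9 with all general capillary cells and 0 with the limits on both classes. Against venous cells, 2 became 10 to 32 (30, 32, 14 and 10 in the same order), 3 with RLE factors, 34 with no filter, 1 without haemoglobin-rich cells, 6 with all general capillary cells and 8 with the limits on both classes. The difference in share kept its direction under every alternative run, from -15.9 to -5.29 percentage points.

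Of the 210 genes that the naming rule gives, the 66 whose fold changes bear on the text were followed, and 58 of these kept their direction in every alternative run. Of 857 values of these genes under the alternatives, 829 kept direction and side of the threshold and 19 passed it. With the gate on cells thinned to 1000 UMIs, Inmt turned to -0.011, Pdgfra to -0.020, Ptgis to -0.093 and Lyve1 to 0.17. Lyve1 was 0.42 in all general capillary cells, and Hbb-bt 0.25 without haemoglobin-rich cells. On leaving out each library, Fabp4 ran from -0.41 (mutant B left out) to 2.06, P4ha1 from -1.09 to 0.10 (WT A left out) and Sftpc from -2.16 to 0.82 (WT B left out). Without haemoglobin-rich cells the interactions with aerocytes were 0.022 for Hba-a2, 0.25 for Hba-a1, 0.51 for Hbb-bs and 0.50 for Hbb-bt, and that of Hbb-bt with venous cells 0.80. Plvap gave 0.17 with the limits on both classes. The cause was not tested. With 2 pools per genotype, the exact test of shares cannot pass its threshold.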
